A study of Mus musculus with 4 samples.

Results

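Short interspersed elements (SINEs) are short, non-coding retrotransposons that spread through the copying machinery of LINEs, and the mouse genome holds very many copies of them. Rodent B1 elements descend from 7SL RNA, the RNA of the signal recognition particle, B2 elements descend from a tRNA, ID elements from the tRNA-like BC1 RNA, and B4 elements join ID-like and B1-like sequence. MIR elements are far older and are shared among mammals, whereas the B1 and B2 elements include young subfamilies found in mice and their close relatives. SINEs carry internal promoters for RNA polymerase III (Pol III), but many copies lie in introns and at transcript ends, so that a read on a SINE can come from a SINE RNA or from a longer RNA that contains the element.

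The SINE subfamilies were the 32 features of the TE count table whose names start with B1_, B1F, B2_, B3, B4, PB1, ID, RSINE or MIR, of 1072 TE features in all. By name they fall into B1 (15 subfamilies, PB1 and B1F included), B2/B3 (5), B4 (4, with ID_B1 and RSINE1), ID (4) and MIR (4). All 32 passed the filter on low counts, and 828 TEs passed it in all. The libraries come from mouse E14 embryonic stem cells (ESCs, strain label 12910la), grown on gelatin in serum-containing medium with the cytokine LIF, which maintains the undifferentiated state. There were 2 libraries of WT ESCs and 2 of Pim3-/- ESCs, in which CRISPR/Cas9 with 2 sgRNAs had mutated the gene for the kinase PIM3. The study made 2 independent Pim3-/- clones, and which replicate stands for which clone is not stated. The p-values rest on the spread between these 4 libraries, drawn for each feature toward the trend over all features. In these libraries a difference due to Pim3 and one between clones and cultures cannot be told apart. RNA was prepared with an mRNA kit, which limits what the counts say about SINE RNAs without a long poly(A) tail. In bulk RNA, fewer cells of a type and less RNA per cell cannot be told apart either.

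The gene tables held between 22029427 and 25668307 counts per library. The markers of ESCs were present in all libraries (9 of 9 tested, 4 lower and 1 higher in Pim3-/- ESCs). Among all tested genes 16.2% were called lower and 17.6% higher, the share to set beside each marker count. The 14 markers of 2C-like cells, the ESCs that resemble 2-cell embryos, had summed levels of 26.4 and 23.1 CPM in WT replicates 1 and 2 and of 250 and 80.0 CPM in Pim3-/- replicates 1 and 2, and 13 of the 14 rose. Primitive endoderm markers had summed levels of 2.97 and 5.12 CPM in WT and 33.7 and 18.7 CPM in Pim3-/- ESCs, and the 6 tested of 7 rose. Trophoblast markers had summed levels between 49.9 and 81.8 CPM with Cdx2 and Elf5 under the filter, and 2 of the 4 tested rose (Eomes and Gata3), while most of the sum came from Tfap2c, which did not pass the test. Fibroblast markers had summed levels between 27.6 and 48.9 CPM with Col3a1 at 0 counts in 3 of the 4 libraries, and 1 of the 3 tested rose (Pdgfrb). The part of these cell types in the SINE values was not tested. The Pim3 gene was counted 4392 and 4953 times in WT and 4970 and 4804 times in Pim3-/- replicates 1 and 2 (log2 fold change -0.27, standard error (SE) 0.17, adjusted p = 0.251, with edgeR's quasi-likelihood test and Benjamini-Hochberg correction). The study shows deleted and inserted bases at the sgRNA sites. Such changes can leave reads over the rest of the gene, so this count does not test the labels.

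The source RNA of the ID family is shown first, because it gives the sequence from which ID elements descend and holds an internal Pol III promoter. The consensus sequences and single copies of the SINEs themselves were not used here. The gene for BC1, Bc1, lies on chromosome 7 of GRCm38 (chr7:144914470-144914637, plus strand) and is 168 bases long. The capitals in Bc1 mark, at positions 57 to 66, the letters GGTTCG followed by any 2 bases and CC. These letters are a form of the B box, an element of internal Pol III promoters, and other forms were not searched.
Bc1: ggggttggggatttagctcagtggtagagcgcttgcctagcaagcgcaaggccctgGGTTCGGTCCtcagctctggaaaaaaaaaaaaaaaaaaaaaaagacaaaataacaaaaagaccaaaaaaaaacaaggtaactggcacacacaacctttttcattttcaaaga

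Both strands were searched for these letters. They occur once in Bc1, on the strand of the RNA. For comparison, 158 of 32817 windows of 300 bases around the starts of mouse genes, taken from RefSeq on GRCm38, (0.481%) hold them. Bc1 also has a run of 23 A and a GC content of 40.5%. These are descriptions of the sequence only.

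SINEs held the majority of the TE counts in each library, and this share overlapped between WT and Pim3-/- ESCs. It was 56.2% (Wilson 95% interval 56.1 to 56.4, counting error only) and 57.8% (57.7 to 57.9) in WT replicates 1 and 2, and 57.7% (57.6 to 57.8) and 57.3% (57.2 to 57.4) in Pim3-/- replicates 1 and 2. The means were 57.0% ± 1.14 and 57.5% ± 0.258 (SD, n = 2). Against the gene table the groups were apart. SINE counts per 1e6 gene counts were 13269 and 15334 in WT and 20682 and 21028 in Pim3-/- ESCs, with means of 14301 ± 1460 and 20855 ± 245 (SD, n = 2). Both Pim3-/- libraries lie above both WT libraries, at a ratio of the means of 1.46, and the sum of all other TEs had a ratio of 1.43. Part of this ratio depends on how gene counts are scaled, since the gene libraries of the groups have unlike TMM factors (0.828 and 0.883 in WT, 1.17 in both Pim3-/- libraries). After TMM scaling by the gene table, the ratio for SINEs was 1.07. For such single values an exact two-sided permutation test of 2 against 2 libraries cannot go below p = 0.333, so none is given.

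**Figure D1:**
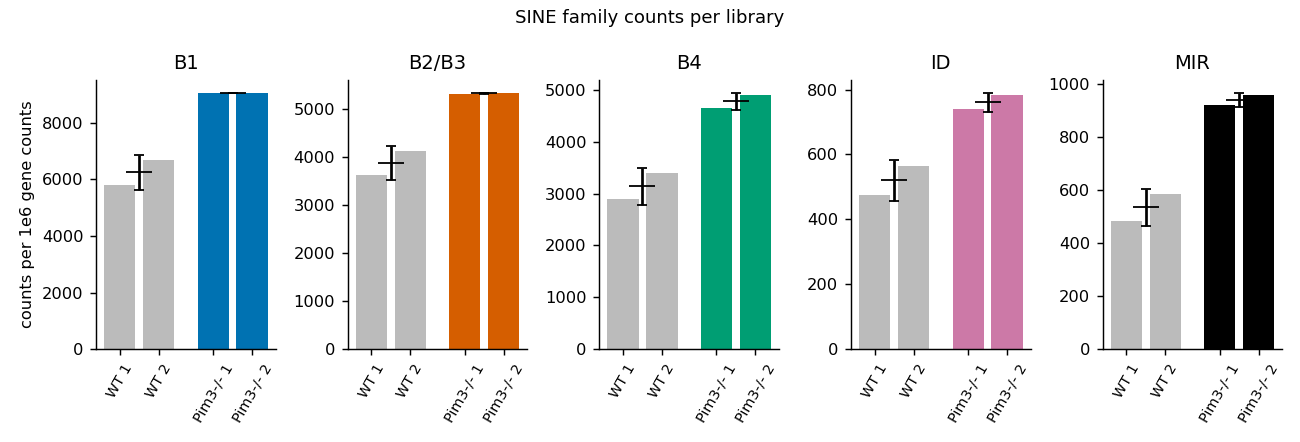
Counts of each SINE family per 1e6 gene counts (linear axis from 0, a scale of its own for each family) in the 4 libraries, grey for WT and coloured for Pim3-/-; the black marks give the mean ± SD of 2 libraries. In every family both Pim3-/- libraries lie above both WT libraries, with ratios of the means from 1.38 for B2/B3 to 1.76 for MIR, and with TMM factors of the gene table the corresponding log2 fold changes shrink to between 0.01 and 0.37.

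The ratio of Pim3-/- to WT levels differed among the families. Their counts per 1e6 gene counts had Pim3-/- to WT ratios of 1.38 for B2/B3, 1.45 for B1, 1.46 for ID, 1.52 for B4 and 1.76 for MIR. The plot of family counts per library shows this as a step from WT to Pim3-/- that is smallest in B2/B3 and largest in MIR. A ratio of one family to another within a library does not depend on any scaling, and the 6 ratios among B1, B2/B3, B4 and MIR were compared. The ratio of MIR to B2/B3 counts was 0.134 and 0.142 in WT replicates 1 and 2 and 0.174 and 0.180 in Pim3-/- replicates 1 and 2. The log2 ratio was thus 0.36 higher in Pim3-/- ESCs (1.28-fold), while its SD was 0.061 between the WT libraries and 0.037 between the Pim3-/- libraries. MIR was also higher relative to B1 (difference of log2 ratios 0.28, 1.22-fold) and to B4 (0.21, 1.16-fold). Among the rodent families, B4 was higher relative to B2/B3 (0.14, 1.11-fold), and the smaller differences were 0.07 for B4 to B1 and 0.08 for B1 to B2/B3, which became 0.03 and 0.12 without the most counted subfamily of each family. In each of the 6 ratios both Pim3-/- libraries lie above both WT libraries. Each ratio has the family with the higher fold change on top, so the common direction follows from how the pairs were written. Ratios of other TEs were not computed. Among single tested TEs, scaled by TMM within the TE table, 29.2% had both Pim3-/- libraries above both WT libraries. Since the 6 ratios are made from 4 families, they are not independent of each other.

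**Figure D2:**
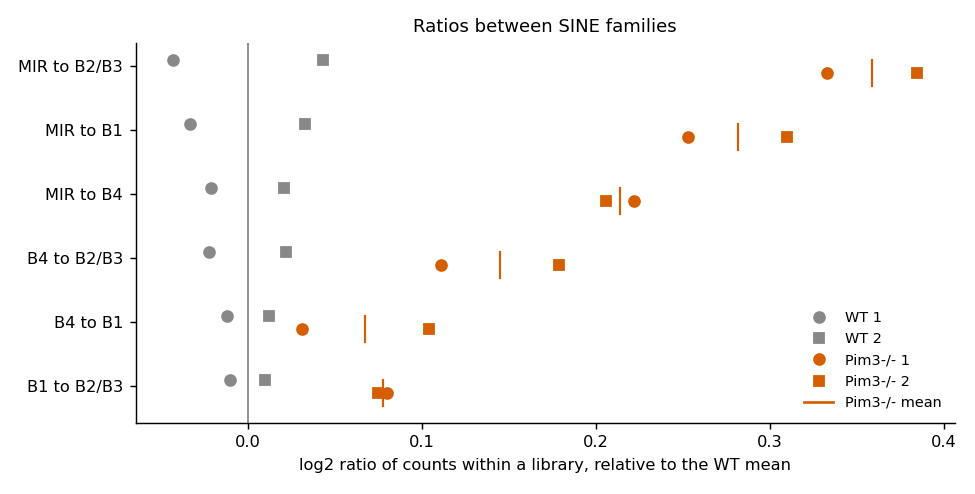
Log2 ratio of the counts of a pair of SINE families within each library, relative to the mean of the WT libraries, for WT (grey) and Pim3-/- (orange) replicates 1 (circles) and 2 (squares), with the Pim3-/- mean as a vertical tick. All 6 Pim3-/- pairs lie to the right of the WT pairs, by 0.07 for B4 to B1 up to 0.36 for MIR to B2/B3. Each ratio has the family with the higher fold change on top, which sets the common direction.

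The composition of the SINE counts shows the same in shares. MIR took 3.65% and 3.81% of the SINE counts in WT replicates 1 and 2 and 4.46% and 4.56% in Pim3-/- replicates 1 and 2. B2/B3 took 27.3% and 26.8% in WT and 25.7% and 25.3% in Pim3-/- ESCs. B4 held 21.8% and 22.1% against 22.5% and 23.3%. Those 3 families do not overlap between the groups, with MIR and B4 higher and B2/B3 lower in Pim3-/- ESCs. For comparison, single TEs were scaled by TMM within the TE table. Of those tested, 29.2% had both Pim3-/- libraries above both WT libraries, and 29.2% had both below. B1, the most abundant family, overlapped (43.7% and 43.6% in WT, 43.8% and 43.1% in Pim3-/- ESCs), as did ID (3.59% and 3.69% against 3.58% and 3.72%). When the counts were scaled to the SINE total, so that fold changes are changes of these shares, the MIR sum was 0.27 higher (95% interval 0.16 to 0.39, adjusted p = 0.0150, edgeR's quasi-likelihood test, Benjamini-Hochberg adjustment over the 801 tested features of a table with 1 sum per family). In that fit 7.49% of the features were called higher. With the same scaling the median log2 fold change of all single tested TEs was 0.17, so part of the MIR value is shared with other TEs. The B2/B3 sum was lower by a log2 fold change of -0.08 (95% interval -0.15 to -0.02) and did not pass the test (adjusted p = 0.0968), where 3.37% of the features were called lower.

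Scaled within the TE table by TMM, as used for the single subfamilies, the rodent SINEs sat slightly below the other TEs and MIR slightly above. The B2/B3 sum had 165426 and 163400 CPM (counts per 1e6 scaled TE counts) in WT replicates 1 and 2 and 142245 and 132794 CPM in Pim3-/- replicates 1 and 2, and it fell (log2 fold change -0.26, SE 0.060, adjusted p = 0.0330). In the table of family sums 7.49% of the features were called, and 4.49% were called lower. The Wald test of DESeq2 called no family sum, and without either WT library B2/B3 lost its call (log2 fold change -0.26 and -0.28). The B1 sum, with 265268 and 265720 CPM in WT and 242833 and 225832 CPM in Pim3-/- ESCs, had a log2 fold change of -0.18 (95% interval -0.31 to -0.05, adjusted p = 0.101). Both Pim3-/- libraries were lower than both WT libraries in B1 and B2/B3, as they were in B4 and ID and in 29.2% of the single tested TEs. The B4 sum had a log2 fold change of -0.11 (95% interval -0.24 to 0.02) and the ID sum one of -0.17 (-0.33 to -0.02), while that of MIR was 0.10 (-0.06 to 0.26), and none of the 3 passed the test. These signs hold for TMM scaling within the TE table. With TMM factors of the gene table the median log2 fold change of all tested TEs moved from 0.01 to 0.27, a shift of 0.262, and the family values became 0.01 for B2/B3, 0.09 for B1, 0.10 for ID, 0.16 for B4 and 0.37 for MIR. B2/B3 was the lowest family and MIR the highest in every fit of all 4 libraries, with 0.36 between them. Another scaling, filter or test of the same counts shifts all families by nearly the same amount, so these fits do not test the order. It was also kept without each library in turn, with 0.32 to 0.40 between B2/B3 and MIR. The ratio of MIR to B2/B3 has both Pim3-/- libraries above both WT libraries, so leaving out a library could not turn this difference.

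Over single subfamilies, 28 of the 32 SINEs had a log2 fold change below 0, and the 4 above 0 were the MIR subfamilies. The median was -0.15, against 0.01 for all 828 tested TEs, of which 412 lay below 0. SINEs are counted much more deeply than most TEs, and the 53 other TEs with at least the counts of the least counted SINE had a median of -0.07, with 37 below 0. With adjusted p under 0.05, 6 SINEs fell, against 5.31% of all tested TEs called lower, and none rose (3.38% of TEs called higher, and 8.7% called in either direction). Of the 53 other TEs counted at least as deeply, 9 were called lower and 4 higher, so that the share of SINEs called lower was close to that of TEs of like depth. At an unadjusted p under 0.05, 17 SINEs were lower and 1, MIRb, was higher. The Wald test of DESeq2 called 1 of the 32 lower and none higher, with 4 lower and none higher at an unadjusted p. Without either WT library no TE was called. Without a Pim3-/- library the spread came wholly from the trend over all features, so calls of those fits are not counted. No SINE changed by 2-fold, where 4.71% of the tested TEs were called and changed by at least 2-fold. In 26 SINEs both Pim3-/- libraries lay below both WT libraries and in 3 above, against 29.2% of tested TEs in each direction, and 3 overlapped (PB1D11, ID2 and MIR3). When the gene table was used for the scaling, only 3 SINEs remained below 0, no SINE was called lower (4.11% of TEs) and 3 were called higher, against 21% of TEs called higher.

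**Figure D3:**
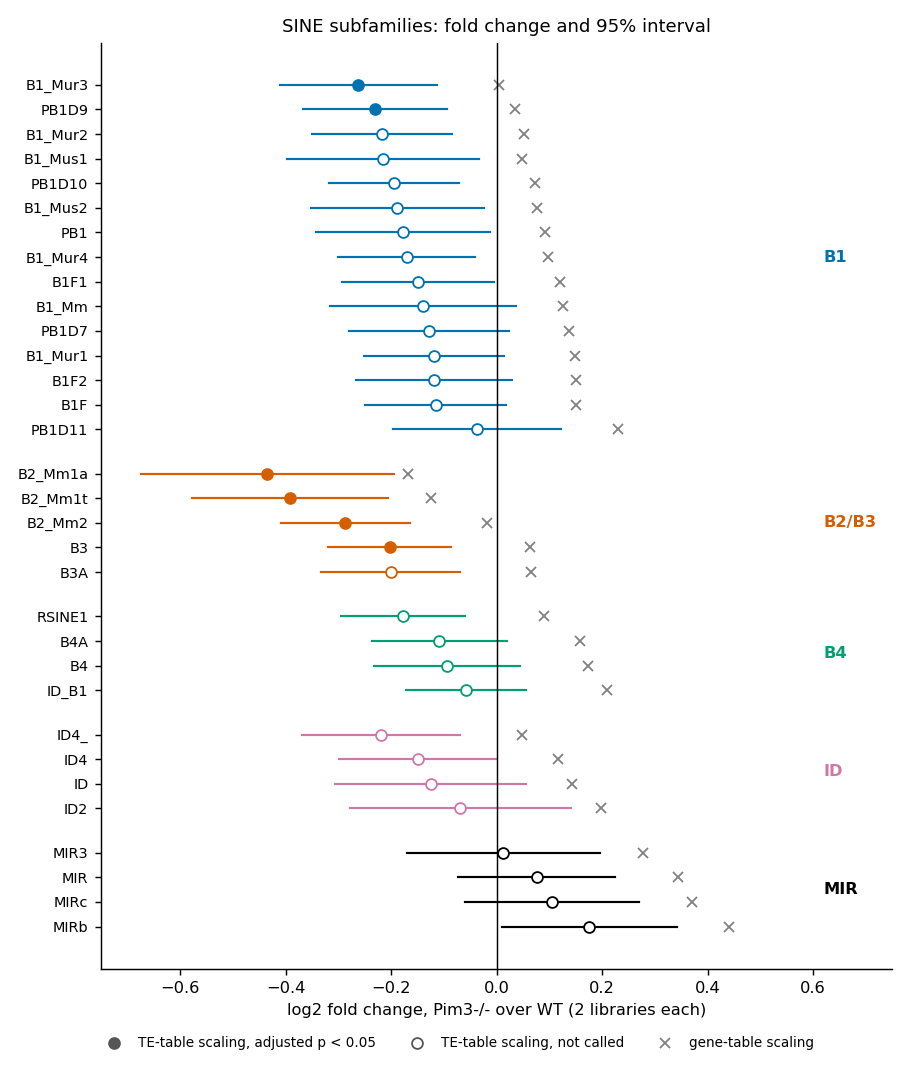
Log2 fold change of each SINE subfamily in Pim3-/- over WT ESCs (2 libraries each), grouped by family, with the 95% interval of the fit scaled within the TE table (circles, filled where adjusted p was under 0.05) and the value under gene-table scaling (crosses). The circles run from -0.43 for B2_Mm1a to 0.18 for MIRb, and the crosses are shifted to the right by about the same amount for every subfamily, so that most signs turn while the order is kept.

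B2/B3 elements held 4 of the 6 called subfamilies, where 5.31% of all tested TEs were called lower. The B2_Mm1a and B2_Mm1t subfamilies are the youngest B2 elements of the mouse, B2_Mm2 is an older B2 subfamily, and B3 and B3A are older relatives. B2_Mm1a had 13652 and 12114 CPM in WT replicates 1 and 2 and 10559 and 8500 CPM in Pim3-/- replicates 1 and 2. Both Pim3-/- libraries are lower, and the difference inside each group is about as large as the gap between the groups. B2_Mm1a fell by 1.35-fold (log2 fold change -0.43, SE 0.11, adjusted p = 0.0428), the largest change among the 32 SINEs, and without Pim3-/- replicate 2 the log2 fold change was -0.29. B2_Mm1t had 15038 and 13825 CPM in WT and 11758 and 10243 CPM in Pim3-/- ESCs, and its log2 fold change was -0.39 (SE 0.082, adjusted p = 0.0244). B2_Mm2 was steadier, with 39505 and 38494 CPM in WT and 32629 and 31293 CPM in Pim3-/- ESCs, and it fell by 1.22-fold (log2 fold change -0.29, SE 0.053, adjusted p = 0.0164). B3, the most counted of all SINEs with 172977 counts, had 63864 and 66067 CPM in WT and 57831 and 55045 CPM in Pim3-/- ESCs (log2 fold change -0.20, SE 0.051, adjusted p = 0.0478). B3A had nearly the same log2 fold change, -0.20 (95% interval -0.33 to -0.07), and an adjusted p of 0.0725. Under gene-table TMM scaling B2_Mm1a, B2_Mm1t and B2_Mm2 were the 3 SINEs that stayed below 0 (-0.17, -0.12 and -0.02), while B3 and B3A moved to 0.06 and 0.07.

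Within the B2/B3 family, the young subfamilies were lower relative to the old ones. The ratio of B2_Mm1a and B2_Mm1t to B3 and B3A counts was 0.299 and 0.260 in WT replicates 1 and 2 and 0.256 and 0.226 in Pim3-/- replicates 1 and 2. Its log2 was lower by -0.21 in Pim3-/- ESCs, but WT replicate 2 and Pim3-/- replicate 1 nearly touch, and the SD within a group was 0.14 and 0.13. For B2_Mm2 to B3 and B3A the difference of log2 ratios was -0.08, again with the Pim3-/- libraries lower. The same comparison in B1 gave no such gap. The ratio of the young B1_Mm, B1_Mus1 and B1_Mus2 to the 5 PB1 subfamilies, which are the oldest B1 relatives, had a log2 of 0.41 and 0.36 in WT and of 0.45 and 0.27 in Pim3-/- ESCs, so that the Pim3-/- libraries lie on both sides of the WT libraries.

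Of the 15 B1 subfamilies 2 were called, both lower. For comparison, 5.31% of all tested TEs were called lower, and so were 9 of the 53 other TEs with at least the counts of the least counted SINE. B1_Mur3 had 15089 and 15136 CPM in WT replicates 1 and 2 and 13140 and 12061 CPM in Pim3-/- replicates 1 and 2, and it fell (log2 fold change -0.26, SE 0.065, adjusted p = 0.0457). PB1D9, an old relative of B1, had 19439 and 20397 CPM in WT and 17323 and 16622 CPM in Pim3-/- ESCs (log2 fold change -0.23, SE 0.060, adjusted p = 0.0498). Both sit just under the threshold and clear of overlap. B1_Mus1, the most counted B1 subfamily, had 42382 and 42428 CPM in WT and 39770 and 33256 CPM in Pim3-/- ESCs, so that the WT libraries were alike and the Pim3-/- libraries were not, and its log2 fold change of -0.22 (95% interval -0.40 to -0.03) had an adjusted p of 0.134. Without Pim3-/- replicate 2 this value was -0.09, and without Pim3-/- replicate 1 it was -0.36 and was called. PB1D11 was nearest to 0 in the family, at -0.04 (95% interval -0.20 to 0.12), and its libraries overlap. The other 11 B1 subfamilies had log2 fold changes between -0.22 (B1_Mur2) and -0.12 (B1F), all with Pim3-/- libraries below WT libraries, as in 29.2% of all tested TEs. With gene-table TMM scaling every B1 subfamily was above 0, from 0.0040 (B1_Mur3) to 0.23 (PB1D11).

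The B4 and ID families contain no called subfamily. RSINE1, a B4 relative, was the lowest B4 member, with 42047 and 42907 CPM in WT replicates 1 and 2 and 38149 and 36918 CPM in Pim3-/- replicates 1 and 2 (log2 fold change -0.18, 95% interval -0.30 to -0.06, adjusted p = 0.0725). ID_B1, which joins ID and B1 sequence, was the most counted and the highest B4 member, with 44939 and 46075 CPM in WT and 43654 and 43757 CPM in Pim3-/- ESCs (log2 fold change -0.06, 95% interval -0.17 to 0.06, adjusted p = 0.488). The libraries of both subfamilies are apart between the groups, by a wide margin for RSINE1 and a narrow one for ID_B1. ID4_ was the most counted and the lowest ID member, with 9117 and 9696 CPM in WT and 8056 and 8105 CPM in Pim3-/- ESCs (log2 fold change -0.22, 95% interval -0.37 to -0.07, adjusted p = 0.0801). ID2 was the least counted SINE, with between 891 and 1523 counts per library, and its CPM of 1747 and 1899 in WT overlap the 1753 and 1725 in Pim3-/- ESCs. With gene-table TMM scaling these 4 subfamilies had log2 fold changes between 0.05 and 0.21, above 0.

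The MIR subfamilies stood at the top of the order in each comparison. MIRb, the most counted of them, had 6699 and 7333 CPM in WT replicates 1 and 2 and 8103 and 7743 CPM in Pim3-/- replicates 1 and 2. Its log2 fold change was 0.18 (SE 0.073, 95% interval 0.01 to 0.34, adjusted p = 0.175), with the groups apart. MIR (6838 and 7034 against 7271 and 7348 CPM) and MIRc (4571 and 4773 against 5135 and 4913 CPM) were also higher in both Pim3-/- libraries, by 0.08 and 0.10 on the log2 scale, and neither passed the test. MIR3 was the lowest member, with 3881 and 4207 CPM in WT and 4212 and 3947 CPM in Pim3-/- ESCs, which overlap. Relative to the SINE total, MIRb (0.35, adjusted p = 0.0148), MIRc (0.28, adjusted p = 0.0353) and MIR (0.25, adjusted p = 0.0423) rose in edgeR's quasi-likelihood test after Benjamini-Hochberg adjustment, where 7.73% of TEs were called higher, and no SINE was called lower (3 at an unadjusted p, 3.26% of TEs called). The median log2 fold change of all tested TEs was 0.17 in that fit. Under TE-table TMM scaling the MIR subfamilies lay between percentiles 51.0 (MIR3) and 64.7 (MIRb) of all tested TEs. The lowest MIR subfamily had a higher log2 fold change than the highest of the other 28 SINEs in every fit of all 4 libraries. A change of scaling moves all SINEs nearly alike, so these fits do not test that order. It was also kept without each library in turn, most narrowly without Pim3-/- replicate 1 (-0.045 against -0.066). The L2 and L3 elements, old LINEs that mammals share, had a median log2 fold change of 0.15 over 6 subfamilies (2 below 0, 1 called higher), the 58 tested old L1 subfamilies one of 0.02 and the 27 rodent L1 subfamilies one of -0.03, all under TE-table TMM scaling.

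The libraries of a group were compared as well, because 2 replicates leave the spread poorly known. Between WT replicates 1 and 2 the log2 CPM of the 32 SINEs differed by -0.13 to 0.17. Between Pim3-/- replicates 1 and 2, B2_Mm1a, B1_Mus1, B1_Mm, B1_Mus2 and B2_Mm1t were higher in replicate 1 by 0.20 to 0.31, whereas the other 27 differed by -0.06 to 0.12. The 5 subfamilies were picked out after their values were seen, and they belong to the young mouse B1 and B2 elements. In WT ESCs the 3 B1 subfamilies among them differed by -0.01 to 0.02 between the replicates, and B2_Mm1a and B2_Mm1t by 0.17 and 0.12. The summed level of the 2C-like markers was also higher in Pim3-/- replicate 1 than in replicate 2 (250 against 80.0 CPM), as was that of the primitive endoderm markers (33.7 against 18.7 CPM), and the part of these cells in the difference was not tested.

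**Figure D4:**
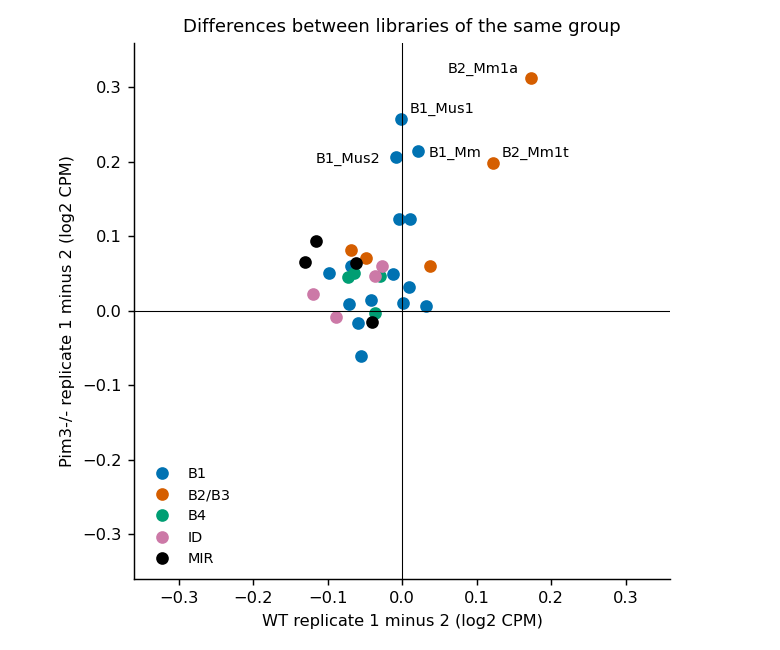
Difference in log2 CPM between the libraries of a group for each SINE subfamily, WT replicate 1 minus 2 on the horizontal axis and Pim3-/- replicate 1 minus 2 on the vertical axis, coloured by family. The 5 named B1 and B2 subfamilies lie 0.20 or more above 0 on the vertical axis, and the other 27 lie between -0.06 and 0.12.

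The genes that make SINE RNA or act on SINEs were compared in the gene table, where 16.2% of 18444 tested genes were called lower and 17.6% higher and the median log2 fold change was 0.07. Of 13 subunits of Pol III, 6 fell and none rose (1 higher at an unadjusted p by edgeR, none called higher by the Wald test of DESeq2), with a median of -0.48. Polr3g, the Pol III subunit typical of pluripotent cells, had 1532 and 1900 counts in WT replicates 1 and 2 and 1246 and 1067 in Pim3-/- replicates 1 and 2, and it fell (log2 fold change -0.90, SE 0.16, adjusted p = 0.00835). Its paralog Polr3gl, which takes its place in differentiated cells, had a log2 fold change of 0.43 (SE 0.20, adjusted p = 0.122). Polr3k (-1.13), Polr1d (-1.10) and Polr1c (-1.03) fell most, and the last 2 are shared with Pol I. Of 17 Pol III factors, 5 fell and 2 rose, with a median of -0.28. Gtf3c1, the subunit of TFIIIC that binds the B box, rose (0.89, SE 0.18, adjusted p = 0.0115), and Gtf3c6 of the same complex fell (-0.94). Maf1, the repressor of Pol III, had -0.28 (SE 0.16, adjusted p = 0.200). Snapc5 (-1.87), Snapc3 (-0.92) and Snapc4 (0.92) are subunits of SNAPc, which serves the 7SK and U6 type of promoter and not that of SINEs.

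Of 27 proteins that bind SINE RNA or the related 7SL and BC1 RNAs, 10 fell and 1 rose, with a median of -0.34. Srp9 and Srp14, which form the dimer that binds the Alu domain shared by 7SL and B1, fell by 1.12 and 0.95 on the log2 scale, as did Srp19 (-1.40), Dhx9 (-0.95), a helicase that unwinds paired SINE RNA, and Ssb (-0.77), which binds the U-rich end of Pol III transcripts. Adarb1, an editing enzyme of double-stranded RNA, rose (0.78), a call that was lost with the Wald test and the size factors of DESeq2, without a filter and without either WT library. Of 21 chromatin proteins that act on SINEs or on CTCF sites in them, 5 fell and 1 rose, with a median of -0.32. Dnmt3b, a DNA methyltransferase, fell by 1.30 on the log2 scale, the remodeller Hells by 0.96 and the heterochromatin protein gene Cbx3 by 0.83. Adnp, whose ChAHP complex binds at SINEs and competes with CTCF there, rose (0.86, SE 0.20, adjusted p = 0.0160), and Ctcf (0.04), Suv39h1 (0.24) and Suv39h2 (-0.36) did not pass the test. When library totals replaced the TMM factors, the median of all genes was 0.52, a shift that turned the medians of Pol III factors, SINE RNA binding proteins and chromatin proteins to between 0.11 and 0.17 and that of the Pol III subunits to -0.03. The counts of called genes also rested on the WT libraries. Without WT replicate 1 or 2, the genes called lower were 0 or 3 of the Pol III subunits, 1 or 1 of the Pol III factors, 1 or 2 of the RNA binding proteins and 1 or 1 of the chromatin proteins, and none was called higher.

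**Figure D5:**
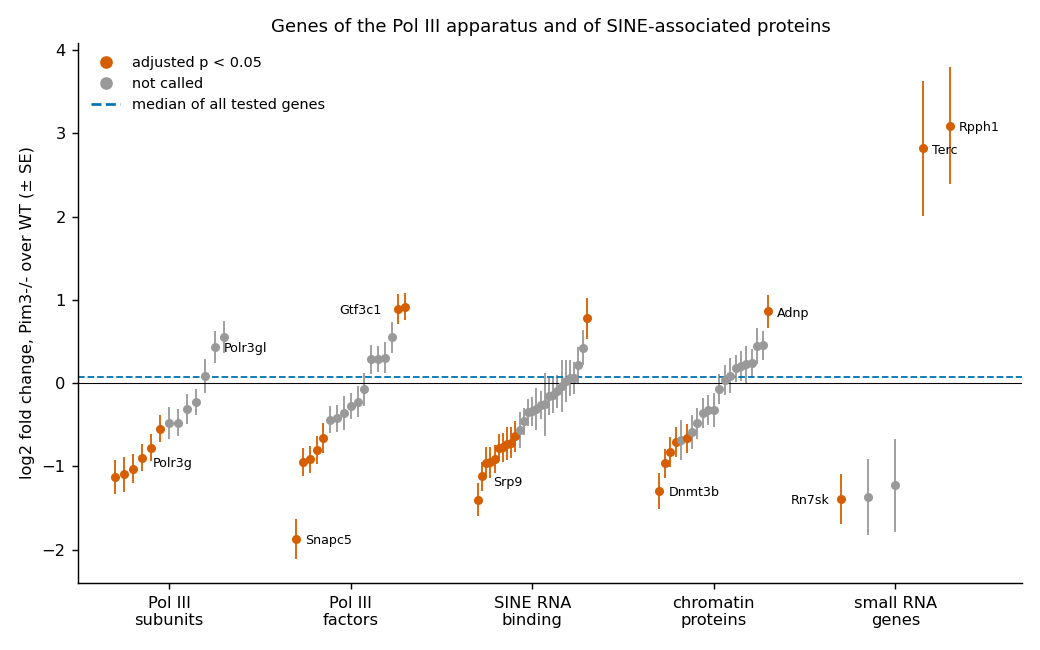
Log2 fold change ± SE in Pim3-/- over WT ESCs (2 libraries each, TMM scaling of the gene table) of the tested genes in 5 lists, sorted within each list and orange where adjusted p was under 0.05, with the median of all tested genes, 0.07, as a dashed line. More orange points lie below 0 than above it in each of the first 4 lists (6 against 0, 5 against 2, 10 against 1 and 5 against 1), and with library totals the median of all genes moves up to 0.52.

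BC1, the source RNA of the ID family, was scarcely counted in these mRNA libraries. Bc1 had no count in 3 libraries and 2 counts in Pim3-/- replicate 2, within the 3 counts that a count of 0 allows. Of the 10 small RNA genes in this list 5 were tested. Rn7sk, the 7SK RNA, fell (407 and 278 against 178 and 157 counts, log2 fold change -1.39, adjusted p = 0.0133), and was not called without WT replicate 1. Rpph1, the RNA of RNase P, rose (88 and 35 against 1103 and 271 counts, 3.09, SE 0.70, adjusted p = 0.0155), with most of its counts in Pim3-/- replicate 1, and without that library its log2 fold change was 1.79. Without WT replicate 2 it was not called (adjusted p = 0.0518 by edgeR's quasi-likelihood test). Terc, which Pol II transcribes in mammals, stood in the same list and rose as well in the fit of all 4 libraries (2.82, SE 0.81, adjusted p = 0.0326), with 1.42 and no call without Pim3-/- replicate 1 and no call without either WT library. The p-values of genes come from edgeR's quasi-likelihood test, adjusted by Benjamini-Hochberg over all tested genes.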

How the data were processed

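The data are 4 RNA-seq libraries, 2 from WT and 2 from Pim3-/- ESCs. The values deposited by the authors are raw counts of reads, whole numbers without normalization, for each gene and each TE subfamily. The study's methods name Cutadapt, Hisat2, mm10, Ensembl genes and RepeatMasker TEs, while the submitters' processing notes name Trim Galore, STAR, featureCounts and GRCm38. How reads with several locations and the strand were handled is not given in the sources used here, so that reads of young SINEs, whose copies are nearly identical, and of SINEs inside genes are uncertain in their origin. The counts hold no copy number or length, so levels were not compared between subfamilies.

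The filterByExpr function of edgeR 4.0.16 kept 828 of 1072 TEs and 18444 genes. It asked for about 10 counts, set as a CPM cutoff, in at least 2 libraries and for 15 counts in total. Counts were scaled by TMM factors within each table. The quasi-likelihood test of edgeR gave the comparison of WT and Pim3-/- ESCs, with Benjamini-Hochberg adjustment across the tested features of a table and a threshold of 0.05. For family sums, the SINEs of a family were added up before the filter, and family ratios were taken from raw counts without a test. WT replicates 1 and 2 had TE totals of 546500 and 680595, and Pim3-/- replicates 1 and 2 had 821065 and 808450. The SINE totals of the same libraries were 307253, 393595, 473475 and 463246. Intervals are at 95% and an error after a mean is the SD (n = 2). DESeq2 1.42.0 and the other alternatives are given at the end. The methods ran in R 4.3.3 and were tested on simulated counts, and plots were made with matplotlib 3.10.9 (Python 3.11.15). Gene sequences were read from GENCODE's transcripts and annotation of GRCm38, and windows around gene starts from RefSeq on the same build.

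The SINE subfamilies, their families and the gene lists were chosen with earlier results of these data known. In each family the most counted, the lowest and the highest subfamily and every called one are described. Of each gene list, the 3 genes with the largest called change in each direction and at least 50 counts are named, with some genes fixed by name. Some items are not reported here, and ChIP-seq libraries and single TE loci were not analysed here.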

Additional observations from a re-analysis of the deposited data

How the results depend on the processing

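The order of the SINE families, with B2/B3 lowest and MIR highest, was found in all 13 alternatives that gave family sums. The fits of all 4 libraries do not test this order, since they shift all families by nearly the same amount. Leaving out a library could not turn the order of B2/B3 and MIR either. Their ratio has both Pim3-/- libraries above both WT libraries. The sign of most values and the calls were not kept in all alternatives. SINEs called lower numbered 6, against 2 with size factors of DESeq2, 2 without a filter, 1 with at least 10 counts in every library, 1 by the Wald test of DESeq2 and 0 with TE totals, either scaling by the gene table or the SINE total. SINEs called higher numbered 3 with TE totals, gene-table TMM factors or the SINE total and 31 with gene totals. Of all 828 tested TEs, 96, 208, 91 and 556 were called in either direction in these 4 fits, in the same order. The 31 thus go with a shift of the whole table. The fits scaled by the gene table, with the replicate block and without a Pim3-/- library took the spread of each feature wholly from the trend over all features, so that their calls cannot be set against the others. The cause of these changes was not tested beyond the shift that each scaling makes in the median of all TEs.

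For B2/B3 the log2 fold change was -0.27 with size factors of DESeq2 and by its Wald test, -0.073 with TE totals, -0.084 with the SINE total and -0.24 with the stricter filter, all without a call, and 0.012 and 0.46 with gene-table TMM factors and gene totals. In the same order of TE totals, gene-table TMM factors and gene totals, B1 had 0.0048, 0.089 and 0.54, B4 0.072, 0.16 and 0.60, ID 0.015, 0.098 and 0.55 and MIR, called in all 3, 0.29, 0.37 and 0.82. With gene totals the sums of all 5 families were called higher, where 556 of the 828 single tested TEs were called in either direction. With the SINE total B4 had 0.061, ID 0.0036 and MIR 0.27, the last called. Without the most counted subfamily of each family the ratio of B1 to B2/B3 differed by 0.12 and that of B4 to B1 by 0.032. Among single SINEs, gene totals gave 0.45 for B1_Mur3, 0.48 for PB1D9, 0.50 for B1_Mus1, 0.68 for PB1D11, 0.28 for B2_Mm1a, 0.33 for B2_Mm1t, 0.43 for B2_Mm2, 0.51 for B3 and for B3A, 0.54 for RSINE1, 0.66 for ID_B1, 0.50 for ID4_ and 0.64 for ID2. Gene-table TMM factors gave 0.0040 for B1_Mur3, 0.035 for PB1D9, 0.048 for B1_Mus1 and ID4_, 0.23 for PB1D11, 0.063 for B3, 0.065 for B3A, 0.089 for RSINE1, 0.21 for ID_B1 and 0.20 for ID2. TE totals gave 0.15 for PB1D11, 0.0047 for RSINE1, 0.13 for ID_B1 and 0.11 for ID2, and the SINE total gave 0.14, 0.11 and 0.10 for PB1D11, ID_B1 and ID2. Of the genes, Maf1 had 0.17, Suv39h2 0.10 and Pim3 0.19 with library totals.

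Leaving out 1 library leaves a group with a lone library that is assumed to vary like the other group. SINEs called lower then numbered 0 without WT replicate 1 or WT replicate 2, when no TE at all was called, 16 without Pim3-/- replicate 1 and 11 without Pim3-/- replicate 2 (range 0 to 16). The B2/B3 value ranged from -0.33 to -0.23 and lost its call without either WT library, that of B1 ranged from -0.26 to -0.15 and was called without Pim3-/- replicate 1, and that of MIR from 0.05 to 0.12. The SINE share of TE counts differed by -0.35 to 1.26 percentage points, with the sign turned without WT replicate 1, and B4 to B1 by 0.03 to 0.10. PB1D11 ranged from -0.072 to 0.0011, above 0 without WT replicate 2, MIR3 from -0.045 to 0.060 and Ctcf from -0.12 to 0.12, both below 0 without WT replicate 1 or Pim3-/- replicate 1. Genes called lower ranged from 0 to 9 for Pol III subunits, 1 to 8 for Pol III factors, 1 to 17 for RNA binding proteins, 1 to 10 for chromatin proteins and 0 to 3 for small RNAs, and genes called higher from 0 to 1, 0 to 4, 0 to 2, 0 to 5 and 0 to 2, with the low ends without a WT library.

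With library totals, the genes called lower and higher were 3 and 2 of the Pol III subunits, 1 and 6 of the Pol III factors, 2 and 2 of the RNA binding proteins and 1 and 7 of the chromatin proteins. The median log2 fold change of all tested genes was 0.52 with these totals. The share of all genes called is not given, so these counts are not results about the lists. With at least 10 counts in every library, 1 Pol III subunit, 2 chromatin proteins and 1 small RNA were called higher. The 1 RNA binding protein called higher was lost (0) with size factors of DESeq2, its Wald test and no filter, and 2 small RNAs were called lower without a filter and by the Wald test. The groups share replicate numbers, but deviations of same-numbered libraries correlated by 0.0233 over TEs and 0.0160 over genes, so the numbers do not pair them. With the replicate block, 7 SINEs were called lower and none higher, B2/B3 had -0.26 and kept its call, and the calls became 1 Pol III subunit higher, 9 RNA binding proteins lower, 6 chromatin proteins lower and 2 small RNAs lower.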
